A study of Homo sapiens with 12 samples.

Results

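The 10 genes described here encode sensors of foreign or misplaced nucleic acid and the proteins that relay their signal: IFIH1, DHX58, TLR3, AIM2, MAVS, EIF2AK2, ADAR, TBK1, IRF3 and IRF7. They were chosen by name, as candidates for viral mimicry, with no expression value in the rule but with earlier results of these data known. Every probe set annotated to exactly 1 of these symbols was taken, which gave 19 of the 54675 probe sets on the array, and 10 of the 19775 genes with a probe set of their own. RNA came from ML-2, an established human acute myeloid leukaemia cell line, and was read on 12 arrays in 4 groups of 3. Control cells received solvent. The SGI110 group received 2 µM SGI-110 for 33 h, the ASTX660 group 5 µM ASTX660 for 9 h, and the combination group 2 µM SGI-110 for 24 h followed by 5 µM ASTX660 for 9 h. SGI-110 is guadecitabine, which releases the DNA hypomethylating nucleoside decitabine, and ASTX660 antagonises inhibitor of apoptosis proteins. The sources used here do not say if SGI-110 was removed when ASTX660 was added, so the combination and SGI110 groups may also differ in SGI-110 exposure. The samples came from 3 independent experiments, and the 3 arrays of each group carry the numbers 2, 9 and 13, which are taken here, though not stated, to be those of the experiments. All groups are 1 cell line in culture, with no normal blood cell or other line beside it.

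Cells recognise double-stranded RNA in the cytosol through helicase receptors of the RIG-I family, among them MDA5, the product of IFIH1, and in endosomes through TLR3. MDA5 signals through MAVS on mitochondria to the kinase TBK1, which phosphorylates IRF3 and IRF7, and these factors switch on type I interferon genes. Interferon in turn raises many of the same sensors. Viral mimicry is the name given to this response when it is set off by the cell's own double-stranded RNA, such as transcripts of endogenous retroviruses, and it has been described after DNA methyltransferase inhibitors in other cancer cells. Retroviral transcripts and protein phosphorylation were not analysed here.

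Values are RMA log2 intensities, so a difference of 1 is a doubling, and probe sets of different genes cannot be ranked against each other. A gene was read from its brightest probe set and tested where that reading was above the median of its array on 3 or more arrays, which left 8 of the 10 genes and 12689 genes in all. A gene was called when limma's Benjamini-Hochberg adjusted p over those 12689 genes was under 0.05. The arrays resembled each other closely, with correlations within a group of 0.9948 to 0.998. The first principal component (51.2% of the variance) separated the 6 arrays with SGI-110 from the 6 without. On the second (13.9%) the arrays numbered 13 of all 4 groups scored 7.89 to 10.84. All arrays numbered 2 or 9 scored -7.42 to -2.53 there. On the third (11.7%) ASTX660 array 2 had a score of 16.95, against -9.28 to 4.11 for the other arrays. Myeloid identity was present on the arrays: 7 of 9 myeloid marker genes, MPO and ELANE among them, exceeded the array median on all 12 arrays, while the monocyte marker CD14 lay below it on all 12.

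Promoter windows from RefSeq (GRCh38.p14) were used for 7 of the 10 genes, spanning 300 bases from 250 before to 50 after the annotated start. These windows are shown because most of the genes are known interferon targets, and the interferon-stimulated response element is built on paired GAAA half-sites. The search was for 2 copies of GAAA separated by any 2 bases, on both strands, and for the gamma-activated pattern TTCNNNGAA. The paired pattern was present in 3.57% of all 35116 windows and TTCNNNGAA in 7.66%. Windows of IRF7, IRF3 and DHX58 were not analysed here. Lower case marks the window, 5′ to 3′ on the strand of the gene, and capitals mark the matches to the paired pattern. The windows of IFIH1 (chr2:162318635-162318934, minus strand), EIF2AK2 (chr2:37156931-37157230, minus strand) and TBK1 (chr12:64451870-64452169, plus strand) were:
IFIH1: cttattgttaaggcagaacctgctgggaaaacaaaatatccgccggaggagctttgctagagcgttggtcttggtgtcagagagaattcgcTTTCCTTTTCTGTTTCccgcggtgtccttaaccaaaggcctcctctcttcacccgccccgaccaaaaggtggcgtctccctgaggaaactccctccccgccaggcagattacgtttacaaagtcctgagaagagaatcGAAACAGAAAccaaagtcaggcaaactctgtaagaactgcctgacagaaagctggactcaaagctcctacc
EIF2AK2: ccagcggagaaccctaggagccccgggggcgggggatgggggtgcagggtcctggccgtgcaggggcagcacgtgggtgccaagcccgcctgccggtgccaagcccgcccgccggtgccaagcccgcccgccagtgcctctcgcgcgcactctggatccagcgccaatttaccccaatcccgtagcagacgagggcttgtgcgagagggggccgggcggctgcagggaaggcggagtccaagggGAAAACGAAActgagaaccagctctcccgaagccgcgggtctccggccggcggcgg
TBK1: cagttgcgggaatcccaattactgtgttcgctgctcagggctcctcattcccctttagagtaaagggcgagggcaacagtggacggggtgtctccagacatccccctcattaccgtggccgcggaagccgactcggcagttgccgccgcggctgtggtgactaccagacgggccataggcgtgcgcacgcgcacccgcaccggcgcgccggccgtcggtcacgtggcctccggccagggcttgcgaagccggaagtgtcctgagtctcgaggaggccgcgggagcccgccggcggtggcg

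The IFIH1 window held 3 matches. Of these, 2 overlapped on the reverse strand, at -159 to -150 and -153 to -144 from the start, and the other lay at -21 to -12. EIF2AK2 held 1, from -6 to 4, and TBK1, MAVS and the 3 windows of ADAR held none. The remaining matches lay in AIM2 (chr1:159076717-159077016, minus strand), at -190 to -181, and in TLR3 (chr4:186068906-186069205, plus strand), at -4 to 6, shown here with 10 bases on either side:
AIM2: tctaggccacTTTCTGTTTCcaatcagtgt
TLR3: caagctttacTTTCACTTTCgagagtgccg

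TTCNNNGAA occurred in the TLR3 window only, at 2 places. The windows also differed in their number of CpG dinucleotides, the sites of DNA methylation. TBK1 held 35, MAVS 34 and EIF2AK2 30, against a median of 14 over all windows (quartiles 4 and 28). IFIH1 held 12, the ADAR windows 13, 14 and 14, TLR3 5 and AIM2 2. Methylation itself was not analysed here, and a match is a run of letters, not evidence of binding.

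With SGI-110, transcripts of the transcription factor IRF7 and the kinase TBK1 rose, whether or not ASTX660 followed, and the RNA sensor IFIH1 rose in SGI-110 and in the combination against solvent. MAVS, EIF2AK2, ADAR, DHX58 and IRF3 passed no planned comparison, and TLR3 and AIM2 lay below the array median on all 12 arrays. In SGI-110 versus solvent, limma called 3 of the 8 tested members, all higher, against a background of 15.4% of the 12689 genes. The backgrounds count both directions, here 1206 genes higher and 749 lower. The members' median change was 0.15 and that of all genes 0.00. In combination versus solvent 3 of 8 were called, all higher, against 17.9% (1533 higher, 742 lower). Their median was 0.16 over the 8 genes (all genes 0.00), and the called genes were the same 3. In combination versus ASTX660 it was 2 of 8, IRF7 and TBK1, both higher, against 16.1% (1062 higher, 976 lower), with a median of 0.14 (all genes -0.01). These comparisons share arrays and are given side by side, not as separate support. The arrays read bulk RNA, so RNA from more expressing cells and more RNA per cell cannot be told apart.

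**Figure D1:**
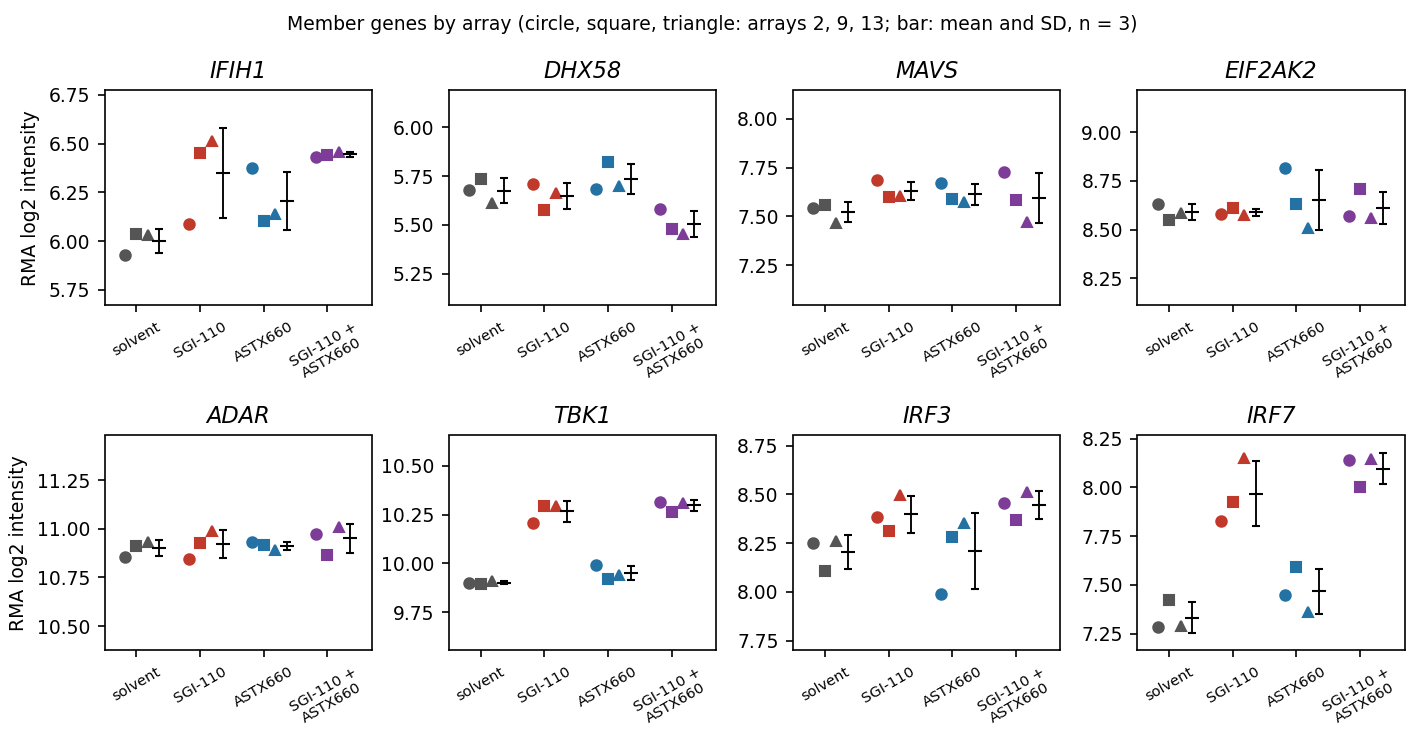
RMA log2 intensity (vertical axis, a separate range for each gene) of the 8 tested genes in the 4 treatment groups. Circles, squares and triangles are arrays 2, 9 and 13, and bars are the mean and SD (n = 3). For IRF7 and TBK1 all 6 arrays with SGI-110 lie above all 6 without it, and for EIF2AK2 and ADAR the groups overlap.

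IFIH1 encodes MDA5, the cytosolic receptor for long double-stranded RNA. Its log2 intensity was 5.93, 6.04 and 6.03 on solvent arrays 2, 9 and 13, and 6.09, 6.45 and 6.51 on the SGI-110 arrays. It was 6.38, 6.10 and 6.14 with ASTX660, and 6.43, 6.44 and 6.46 with the combination. Every array of the other 3 groups lay above the highest solvent array, SGI-110 array 2 by little, and ASTX660 array 2 lay above that SGI-110 array. Such separation from solvent, in either direction, was found in 36.2% of all genes for SGI-110, 12.3% for ASTX660 and 38.4% for the combination. The combination exceeded solvent by 0.44 (SE 0.107, 1.36-fold, limma adjusted p = 0.0111), a call held in all 21 alternative settings that tested IFIH1 (adjusted p 0.00356 to 0.0469). SGI-110 alone exceeded solvent by 0.35 (1.27-fold, 95% interval 0.12 to 0.58, limma adjusted p = 0.041). That call was held in 10 of the 21 settings and lost in 11, with adjusted p from 0.00705 to 0.168. It was lost without solvent array 2 (0.132), 9 (0.0828) or 13 (0.0791), without SGI-110 array 9 (0.138) or 13 (0.168), and without combination array 2 (0.0506) or 13 (0.0513). Median centring (0.0648), quantile normalization (0.0596), no brightness filter (0.0584) and a fit of the 2 groups alone (0.0599) also ended it. Against ASTX660 the combination was higher by 0.24 (limma adjusted p = 0.153), which did not pass. ASTX660 differed from solvent by 0.21 (limma adjusted p = 0.723), and by 0.12 without ASTX660 array 2. The other 2 IFIH1 probe sets lay below the array median on all arrays, and their SGI-110 changes were 0.13 and 0.05.

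DHX58 encodes LGP2, a helicase of the same family that lacks the signalling domains and tunes the other receptors. Solvent arrays read 5.68, 5.74 and 5.61, SGI-110 arrays 5.71, 5.58 and 5.66, ASTX660 arrays 5.68, 5.82 and 5.70, and combination arrays 5.58, 5.48 and 5.45. The combination arrays were the lowest group, all below every solvent and ASTX660 array, while the SGI-110 and solvent arrays overlapped. Such separation of the combination, in either direction, was found in 38.4% of all genes against solvent and 29.4% against ASTX660. The SGI-110 change was -0.03 (95% interval -0.20 to 0.14, limma adjusted p = 0.873). The combination differed from ASTX660 by -0.23 (95% interval -0.40 to -0.06, limma adjusted p = 0.0614), which passed under quantile normalization (0.0435), with probe sets averaged (0.026), without the intensity trend (0.0312) and with array weights (0.0408). Its direction there was opposite to that of IFIH1.

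TLR3 and AIM2, the endosomal receptor for double-stranded RNA and the inflammasome receptor for cytosolic DNA, gave no value above the array medians of 4.688 to 4.774. The brightest of the 3 TLR3 probe sets ranged from 2.96 to 3.44 over the 12 arrays and the AIM2 probe set from 3.01 to 3.45. Both genes were left out of the gene test and read in a fit over all 54613 probe sets that are not controls. There TLR3 changed by 0.13 with SGI-110 (limma adjusted p = 0.596) and by 0.26 in combination versus ASTX660 (limma adjusted p = 0.108). AIM2 read 3.22, 3.26 and 3.21 in solvent and 3.41, 3.45 and 3.35 with SGI-110. These groups did not overlap, as in 36.2% of the tested genes (in either direction), and the change of 0.17 did not pass (limma adjusted p = 0.394). In the combination AIM2 read 3.38, 3.19 and 3.26, overlapping solvent.

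MAVS encodes the mitochondrial adaptor of MDA5 and RIG-I. Its brightest probe set read 7.54, 7.56 and 7.46 in solvent, 7.68, 7.60 and 7.60 with SGI-110, 7.67, 7.59 and 7.57 with ASTX660, and 7.73, 7.58 and 7.47 with the combination. SGI-110 arrays lay just above solvent arrays, a separation found in 36.2% of all genes (in either direction), and the combination spanned both. The SGI-110 change was 0.11 (95% interval -0.05 to 0.26, limma adjusted p = 0.382) and the change in combination versus ASTX660 was -0.02 (limma adjusted p = 0.898). The 4 MAVS probe sets gave SGI-110 changes of -0.03 to 0.11, none of them called.

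EIF2AK2 encodes PKR, the kinase that stops translation on binding double-stranded RNA, and is a textbook interferon target. It read 8.63, 8.55 and 8.59 in solvent, 8.58, 8.61 and 8.58 with SGI-110, 8.82, 8.63 and 8.51 with ASTX660, and 8.57, 8.71 and 8.56 with the combination. All 4 groups overlapped. The SGI-110 difference was 0.00, and its 95% interval of -0.16 to 0.16 covers folds from 0.895 to 1.118 (limma adjusted p = 0.999). In combination versus ASTX660 the difference was -0.04 (limma adjusted p = 0.775). The 3 EIF2AK2 probe sets gave SGI-110 changes of -0.05 to 0.00.

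ADAR encodes the enzyme that edits adenosines in double-stranded RNA and thereby hides the cell's own RNA from MDA5. It read 10.86, 10.91 and 10.93 in solvent, 10.85, 10.92 and 10.99 with SGI-110, 10.93, 10.91 and 10.89 with ASTX660, and 10.97, 10.87 and 11.01 with the combination. The groups overlapped. The SGI-110 difference was 0.02 (95% interval -0.09 to 0.12, folds of 0.943 to 1.089, limma adjusted p = 0.85), and that of combination versus ASTX660 was 0.04 (limma adjusted p = 0.653).

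TBK1 encodes the kinase on which MAVS, TLR3 and STING signalling converge. It read 9.90, 9.89 and 9.91 in solvent and 10.21, 10.30 and 10.30 with SGI-110. With ASTX660 it read 9.99, 9.92 and 9.94, and with the combination 10.32, 10.27 and 10.31. All 6 arrays with SGI-110 lay above all 6 without it, as in 16.4% of all genes (in either direction). SGI-110 exceeded solvent by 0.37 (SE 0.0451, 1.29-fold, limma adjusted p = 0.000137), and the combination exceeded ASTX660 by 0.35 (1.27-fold, limma adjusted p = 0.00024). The combination exceeded solvent by 0.40 (1.32-fold, limma adjusted p = 6.63e-05). These 3 calls held in all 22 alternative settings. The interaction, meaning the SGI-110 difference with ASTX660 minus that without it, was -0.02 (95% interval -0.16 to 0.12).

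IRF3 is the constitutive transcription factor that TBK1 phosphorylates. It read 8.25, 8.11 and 8.26 in solvent, 8.39, 8.31 and 8.50 with SGI-110, 7.99, 8.28 and 8.36 with ASTX660, and 8.45, 8.37 and 8.51 with the combination. SGI-110 and combination arrays lay above every solvent array, and ASTX660 array 2 was the lowest of the 12. Separation from solvent, in either direction, was found in 36.2% of all genes for SGI-110 and 38.4% for the combination. The changes were 0.19 for SGI-110 versus solvent (limma adjusted p = 0.188), 0.24 for combination versus solvent (0.0831) and 0.24 for combination versus ASTX660 (0.0966). With the experiment number as a replicate block the combination passed against solvent (limma adjusted p = 0.0219), as it did without ASTX660 array 2 (0.0247), with array weights (0.0326) and in a fit of the 2 groups alone (0.0423). Against ASTX660 it passed with the block (0.0252) or without ASTX660 array 13 (0.048), and the change was 0.13 (0.289) without ASTX660 array 2.

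IRF7 is the factor that amplifies interferon production and is itself raised by interferon in many cells. It read 7.28, 7.43 and 7.29 in solvent and 7.83, 7.93 and 8.15 with SGI-110. With ASTX660 it read 7.45, 7.59 and 7.36, and with the combination 8.14, 8.00 and 8.15. As for TBK1, all 6 arrays with SGI-110 lay above all 6 without it, the nearest being SGI-110 array 2 and ASTX660 array 9. SGI-110 exceeded solvent by 0.64 (SE 0.0901, 1.55-fold, limma adjusted p = 0.000411), and the combination exceeded ASTX660 by 0.63 (1.55-fold, limma adjusted p = 0.000418). The combination exceeded solvent by 0.76 (1.70-fold, limma adjusted p = 9.12e-05). All 3 calls held in the 22 alternative settings, where the SGI-110 change was 0.55 to 0.71. The interaction was -0.01 (95% interval -0.28 to 0.27).

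**Figure D2:**
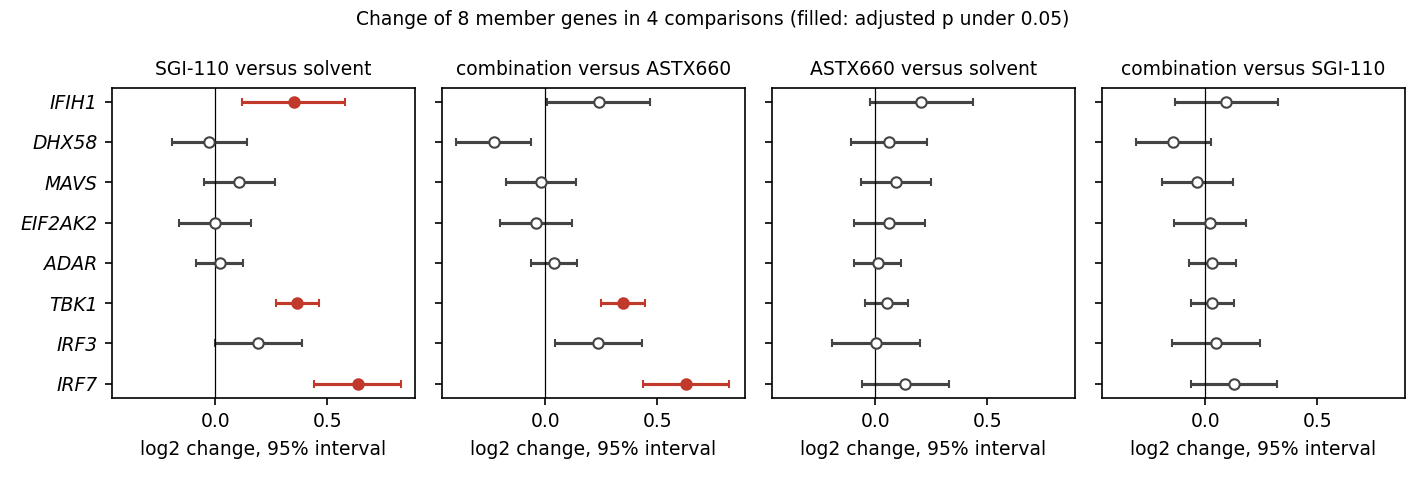
Log2 change (horizontal axis) of the 8 tested genes, with 95% intervals, in the 4 comparisons named above the panels, from 3 arrays per group. Filled points passed at an adjusted p under 0.05: IFIH1, TBK1 and IRF7 in SGI-110 versus solvent, TBK1 and IRF7 in combination versus ASTX660, and no gene in the panels on the right.

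ASTX660 alone moved none of the 8 genes past the threshold. In ASTX660 versus solvent limma called 0 of 8 members, 0 of them at an unadjusted p under 0.05, against a background of 0% (0 of 12689 genes called, 894 at an unadjusted p under 0.05). The members' median was 0.06, with IFIH1 at 0.21, IRF7 at 0.13 (limma adjusted p = 0.764) and TBK1 at 0.05 (limma adjusted p = 0.818). In combination versus SGI-110 it was again 0 of 8, with 0 at an unadjusted p under 0.05, against 0% (370 genes at an unadjusted p under 0.05). IRF7 differed there by 0.13 and TBK1 by 0.03, and the median was 0.03. For the interaction limma called 0 of 8, with 0 at an unadjusted p under 0.05, against 0% (204 genes at an unadjusted p under 0.05). DHX58 had the interaction farthest from 0 among the 8 genes, at -0.20 (95% interval -0.44 to 0.03). With intervals of this width, a modest difference between the SGI-110 responses with and without ASTX660 was not detectable.

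A contrast of the 6 arrays with SGI-110 against the 6 without was chosen after the values above were seen. It called 4 of 8 members higher and 0 lower, against a background of 29.9% (2004 genes higher, 1792 lower). The additional gene was IRF3, at 0.21 (1.16-fold, limma adjusted p = 0.0215), and it no longer passed when solvent array 9 (0.0585), SGI-110 array 13 (0.0552) or combination array 13 (0.0522) was left out. IFIH1 differed by 0.29 (limma adjusted p = 0.0093), and DHX58 by -0.13 (limma adjusted p = 0.098). DHX58 passed as lower in 4 of the 21 alternative settings. These were quantile normalization (0.0409), averaged probe sets (0.0452), no intensity trend (0.0486) and array weights (0.0357). TBK1 differed by 0.36 and IRF7 by 0.63. Of the 8 genes, TBK1 and IRF7 had no overlap between the 6 and 6 arrays, against 16.4% of all genes.

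In the fit over all probe sets with no brightness filter, 2 of 19 member probe sets passed in SGI-110 versus solvent, those of TBK1 and IRF7. The share of all 54613 called in either direction was 4.64%. The same 2 passed in combination versus ASTX660, against 5.36%. No member probe set was called lower in either. The brightest IFIH1 probe set had a limma adjusted p of 0.0891 there. TBK1, IRF7, IRF3, DHX58, ADAR and AIM2 rest on 1 probe set each, so no second reading of those genes was available on these arrays.

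**Figure D3:**
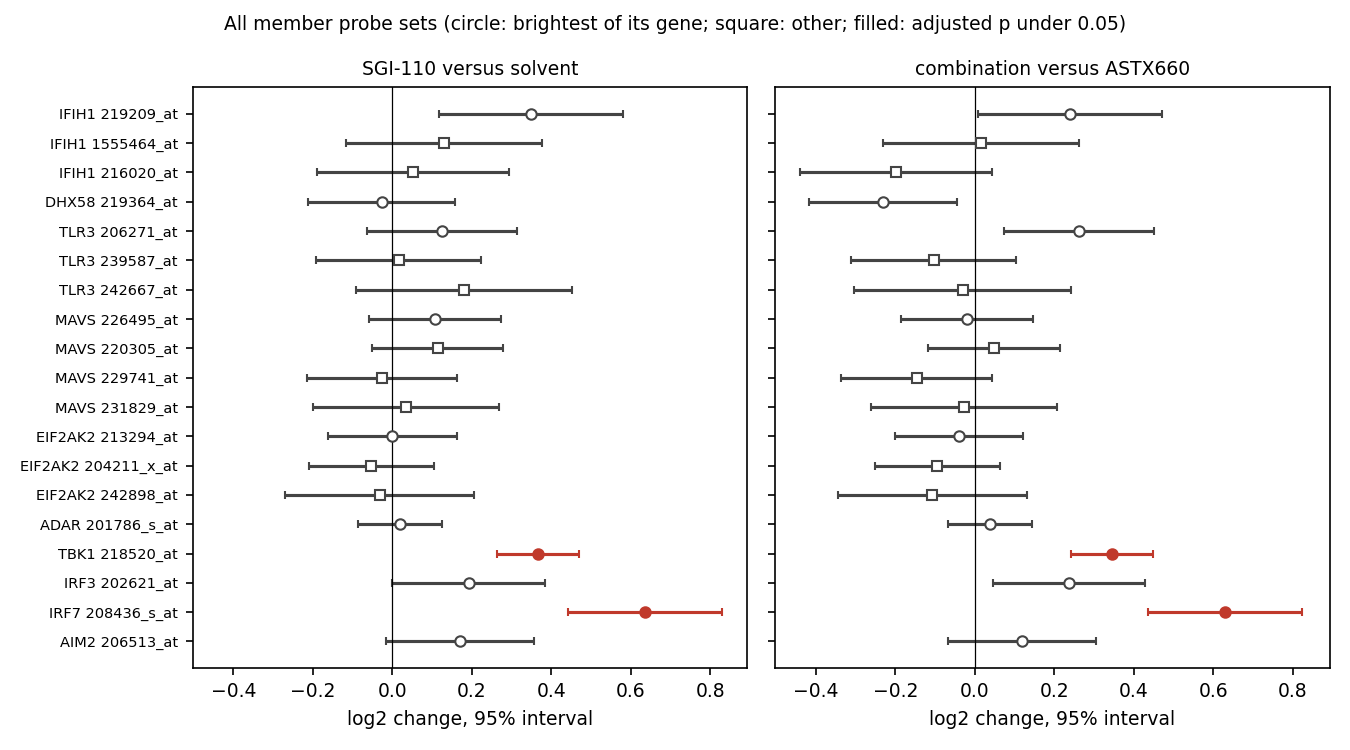
Log2 change with 95% interval (horizontal axis) of all 19 probe sets in SGI-110 versus solvent and in combination versus ASTX660 (3 arrays per group). Circles are the brightest probe set of a gene and squares its others. The filled points, TBK1 and IRF7, are those with an adjusted p under 0.05 over all 54613 probe sets.

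The genes around the members were read from 6 lists of 121 genes, with SGI-110 versus solvent given first. Their counts stand beside the shares of all genes called in either direction, 15.4% there and 16.1% in combination versus ASTX660. Among other RNA sensors and their helpers, 1 of 15 tested rose and 0 fell, a share below the 15.4% of all genes, with a median of 0.03. OAS3, an antiviral enzyme activated by double-stranded RNA, rose by 0.49 (1.40-fold, limma adjusted p = 0.00201), and by 0.54 in combination versus ASTX660 (0.00116), where 2 of 15 rose and 0 fell with a median of 0.00. OAS1, an enzyme of the same kind, rose there by 0.52 (0.00547), and stood at 0.17 (0.342) with SGI-110 alone. With probe sets averaged, the OAS1 change with SGI-110 alone was 0.36 and passed (0.0152), as in 1 of the 22 alternative settings. RIGI, the receptor for short double-stranded RNA with a triphosphate end, stood at 0.11 (0.468) and at -0.21 (0.135).

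Among DNA sensing and inflammasome genes, 5 of 13 rose and 0 fell, with a median of 0.30. In combination versus ASTX660, 5 rose and 1 fell, with a median of 0.12. RNASEH2C, a subunit of the RNase H2 complex that removes RNA from DNA hybrids, rose by 0.36 (limma adjusted p = 0.000247) and by 0.35 (0.000322). RNASEH2B, a subunit of the same complex, stood at -0.17 (0.0819), and passed as lower in 4 of the 22 alternative settings (lowest 0.0199, with array weights). In the second comparison RNASEH2B fell by 0.28 (0.00787), a call lost with probe sets averaged (0.0593). IFI16, a nuclear DNA sensor, rose by 0.48 (0.00469) and by 0.38 (0.0177), the latter lost without ASTX660 array 13 (0.066) or combination array 13 (0.0793). STING1, the adaptor of cytosolic DNA sensing, stood at 0.32 (0.0406) and 0.35 (0.028), and IL18, an inflammasome cytokine, at 0.43 (0.0256) and 0.40 (0.0321). In SGI-110 versus solvent, STING1 no longer passed on omitting solvent array 2 (0.0665) or 9 (0.176), or SGI-110 array 2 (0.0528) or 13 (0.175) or combination array 2 (0.0517). Median centring (0.0538) and a fit without the intensity trend (0.0689) also ended its call. IL18 no longer passed on omitting any solvent array, 2 (0.064), 9 (0.089) or 13 (0.0503), or SGI-110 array 9 (0.05) or 13 (0.107). In combination versus ASTX660, STING1 lost its call without ASTX660 array 2 (0.0839) or 9 (0.104) or combination array 2 (0.0641) or 13 (0.11), and IL18 without ASTX660 array 9 (0.0727) or 13 (0.0925) or combination array 9 (0.12) or 13 (0.0936). STING1 also lost it without the intensity trend (0.0505), and IL18 in a fit of the 2 groups alone (0.0888). CGAS, the enzyme upstream of STING1, stood at 0.02 (0.885). Over the alternative settings the number of calls in this list ran from 2 to 8, the highest with the replicate block.

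Among adaptors, kinases and factors, 1 of 19 rose and 0 fell, with a median of 0.09, and 2 rose in combination versus ASTX660, with a median of 0.04. Both shares are below those of all genes (15.4% and 16.1%). The riser was TYK2, a kinase of the interferon receptor, at 0.28 (limma adjusted p = 0.0316) and 0.32 (0.0142). With SGI-110 alone it no longer passed when solvent array 2 (0.0776), 9 (0.0945) or 13 (0.0711) or SGI-110 array 9 (0.0712) or 13 (0.138) was left out, or with median centring (0.058). Its second call was lost without ASTX660 array 9 (0.0558) or combination array 2 (0.0542) or 13 (0.0639). IRF9, the DNA-binding part of the interferon-activated complex, rose by 0.36 in combination versus ASTX660 (0.0177), a call lost without ASTX660 array 13 (0.062) or combination array 13 (0.0799). With SGI-110 alone IRF9 stood at 0.27 (0.062), and passed in 3 of the 22 alternative settings, the replicate block (0.0286) among them. The list's calls ran from 0 to 5 over the settings, 5 with the replicate block.

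Interferon genes themselves were near the floor of the arrays. Of 19 listed, 17 had a probe set of their own, and 1 of these exceeded the array median on any array. That was IFNA17, on a probe set of type _x_at that can read close relatives, at 5.54, 5.20 and 5.38 in solvent and 5.35, 5.37 and 5.20 with SGI-110, groups that overlapped (change -0.07, limma adjusted p = 0.759). With no brightness filter limma called 1 of the 17, IFNA8, with a change of -0.30 (adjusted p = 0.0164), from values below the array median on all 12 arrays.

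Among genes of double-stranded RNA turnover and of brakes on the response, 2 of 15 rose and 2 fell (15.4% of all genes called), with a median of 0.08. In combination versus ASTX660, 1 rose and 2 fell (16.1% of all genes called), with a median of 0.04. Over the alternative settings the calls ran from 2 to 5 and from 2 to 6. PNPT1, the mitochondrial polynucleotide phosphorylase that degrades mitochondrial RNA, fell by 0.34 (limma adjusted p = 0.00103) and by 0.28 (0.00388). SUPV3L1, its helicase partner, fell by 0.21 (0.0461) and by 0.23 (0.0279). In SGI-110 versus solvent SUPV3L1 passed on leaving out SGI-110 array 9 or ASTX660 array 2 and on leaving out no other single array (adjusted p up to 0.176). Median centring (0.084) and no brightness filter (0.0692) also ended that call. Its second call was lost without ASTX660 array 2 (0.0709) or combination array 2 (0.0658) or 13 (0.107). It was also lost with median centring (0.0564) and in a fit of the 2 groups alone (0.0863). NLRC5, which activates MHC class I genes, rose by 0.50 (1.42-fold, 0.00161). In the second comparison it stood at 0.22 (0.102), and passed in 2 of the 22 alternative settings. TNFAIP3, which encodes the NF-kB brake A20, rose by 0.32 (0.0142) and by 0.36 (0.00741). With SGI-110 alone it did not pass when solvent array 2 (0.0694) or SGI-110 array 13 (0.0641) was left out, or with probe sets averaged (0.13).

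Of 20 tested interferon-stimulated genes, 8 rose and 0 fell, with a median of 0.20, and 7 rose and 0 fell in combination versus ASTX660, with a median of 0.18. TRIM22, an antiviral ubiquitin ligase, rose by 1.11 (2.17-fold, limma adjusted p = 1.3e-05) and by 1.06. IFIT3 rose by 0.85 (1.80-fold, 0.000834) and by 0.72. HERC5, the ligase that attaches ISG15 to proteins, rose by 0.60 (1.52-fold) and by 0.52. PLSCR1 rose by 0.31 (0.00196) and by 0.37, the latter lost with probe sets averaged (0.0545). ISG15 stood at 0.16 (0.237) and MX1, an antiviral GTPase, at -0.02 (0.953). MX1 read 4.10 to 4.83 and exceeded the array median on only 3 of the 12 arrays. Another 10 genes of the list, IFIT1, IFI44, RSAD2 and CXCL10 among them, did not pass the filter on brightness and were not tested. The list's calls ran from 6 to 12 over the settings, 12 with the replicate block.

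**Figure D4:**
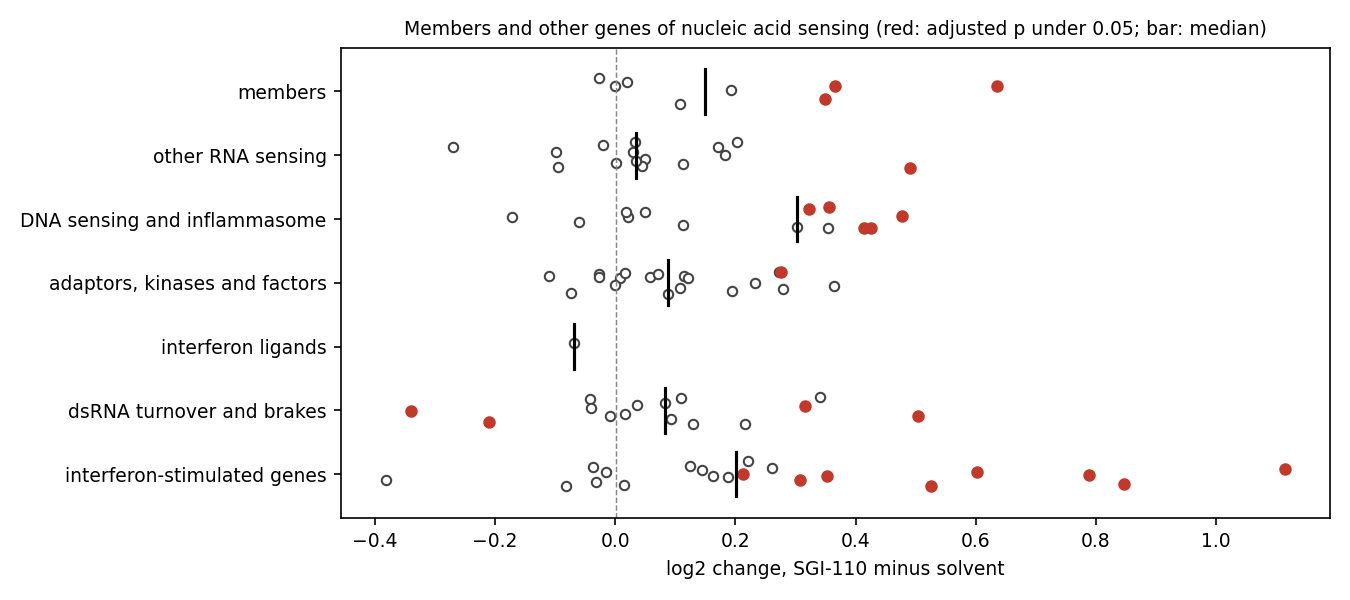
Log2 change in SGI-110 minus solvent (horizontal axis) of every tested gene in the 10-gene set and the 6 lists, 1 point per gene, with vertical bars at the median and a dashed line at the median of all 12689 genes. Red points passed at an adjusted p under 0.05. The members' median is 0.15, and PNPT1 and SUPV3L1 are the red points below 0.

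Some markers of cell state moved with SGI-110 as well. The mean of 9 myeloid markers was 9.11 to 9.34 over the solvent arrays, 9.39 to 9.52 with SGI-110, 9.19 to 9.32 with ASTX660 and 9.40 to 9.54 with the combination. In SGI-110 versus solvent 3 of its 8 tested genes rose and 0 fell (15.4% of all genes called), with a median of 0.17. Mean ITGAM went from 5.24 to 6.12 and PTPRC from 8.04 to 8.73, while MPO stood at 13.36 and 13.31 and ELANE at 13.65 and 13.58. The epithelial list also stood higher with SGI-110, at 3.97 to 4.26 against 3.79 to 3.90 in solvent, through KRT8 (5.97 to 6.50). Its defining markers EPCAM and CDH1 lay below the array median on all arrays. The KRT8 change of 0.54 in SGI-110 versus solvent did not pass, and that of 0.62 in combination versus ASTX660 did. Of 4 markers of plasmacytoid dendritic cells, which are known for high IRF7, the defining CLEC4C and LILRA4 lay below the array median on all 12 arrays, and IL3RA and TCF4, which other blood cells also express, lay above it on all 12. The part of the myeloid marker changes in the changes of IRF7, TBK1 and IFIH1 was not tested.

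The genes whose pattern lay closest to each called member were found by the root mean square difference in log2 units over the 12 arrays, after centring each gene on its own mean. For IRF7 these were FUCA1 (0.0611), KCNE3 (0.0627) and TAP1 (0.0839), against a median of 0.355 over 12688 genes. For TBK1 they were TRIP6 (0.0369), XPNPEP1 (0.0409) and CCNG1 (0.0409), against 0.215, and for IFIH1 TXNDC16 (0.0746), NIPA1 (0.076) and PNPLA8 (0.0795), against 0.229. The 9 genes had SGI-110 changes between 0.30 and 0.62, which follows from picking them for nearness to called members on the same arrays.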

How the data were processed

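RNA of ML-2 cells was measured on 12 Affymetrix arrays. Per the labels' protocols, 100 ng of total RNA went into each 3' IVT PLUS labelling with biotin. The authors deposited log2 intensities made with affy and RMA, per the submitters' processing notes, with no version. RMA compresses ratios at low intensity. The sources used here do not say if 1 RMA run covered all arrays.

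Of 54675 probe sets 41091 had 1 gene symbol in the platform annotation. Groups were compared with limma 3.58.1 in R 4.3.3 (1 mean per group, intensity trend, 8 residual degrees of freedom, Benjamini-Hochberg), tested on simulated data. The median standard error was 0.085. The number of arrays limits the precision.

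The members, the 6 lists and the markers were chosen with earlier results of these data known. Named genes were all members, up to 4 called genes per list, by adjusted p, in SGI-110 versus solvent and in combination versus ASTX660, the brightest gene of a list without calls, interferon genes above an array median, and the 3 genes nearest each called member. RIGI, CGAS, ISG15 and MX1 were added after their values were seen, as were the marker genes named, which stand for their lists. Some genes of these lists are not reported here. T cell, B cell, erythroid and fibroblast lists showed overlapping array means between solvent and SGI-110 (4.39 to 4.55 against 4.33 to 4.55, 4.84 to 5.07 against 4.85 to 5.09, 5.28 to 5.41 against 5.24 to 5.44, and 5.63 to 5.80 against 5.60 to 5.81).

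The titles' numbers 2, 9 and 13 were taken as numbers of the experiments. The labels do not say so. Deviations from the group mean correlated between same-numbered arrays at 0.377, 0.367 and 0.572 for SGI-110 and solvent, and at 0.15, 0.159 and 0.541 for combination and solvent, above the 0.1 used to accept a pairing. For combination and ASTX660 the values were 0.057, 0.158 and 0.539, that of array 2 being below 0.1. The main fit took no groups as paired. The experiment number entered only in the replicate block setting, which was run for all comparisons, that of combination and ASTX660 included.

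Alternatives were the replicate block, median centring, quantile normalization, no filter, a filter on all arrays, averaged probe sets, no trend, array weights, robust variances, the 2 groups alone and each array left out.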

Additional observations from a re-analysis of the deposited data

How the results depend on the processing

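Over the 22 alternative settings no called member reversed. Of 175 member values in SGI-110 versus solvent, 164 stayed on their side of the threshold, most of them never called, and 11 lost a call, all of IFIH1. In combination versus solvent 4 values passed that had not, all of IRF3, and in combination versus ASTX660 6 passed, of DHX58 and IRF3. Changes of sign among values called in neither setting were not counted as reversals. They numbered 10 in SGI-110 versus solvent, 3 in combination versus solvent and 4 in combination versus ASTX660. In ASTX660 versus solvent and in combination versus SGI-110 they numbered 7 each, of 175 values per comparison. Adding the replicate block raised the number of genes called from 1955 to 3202 in SGI-110 versus solvent, from 2275 to 3632 in combination versus solvent and from 2038 to 3378 in combination versus ASTX660. It gave 1 in ASTX660 versus solvent and 10 in combination versus SGI-110, none a member. Among the 8 member genes it changed the calls of IRF3 in combination versus solvent and versus ASTX660 and no other. A fit of the 2 groups alone gave 1232 in combination versus ASTX660, with fewer arrays. Leaving out 1 array gave 1239 to 2312 genes in SGI-110 versus solvent (lowest without solvent array 9), 1389 to 2751 in combination versus solvent (lowest without solvent array 9) and 1310 to 2033 in combination versus ASTX660 (lowest without combination array 2). In the averaged SGI-110 contrast it gave 2 to 4 called member probe sets. IRF7 and TBK1 kept every SGI-110 call. The precision rests on 3 arrays per group and, for most members, 1 probe set. Where a 95% interval is printed for a member and a comparison, it bounds the change that could be missed there. TLR3, AIM2 and the interferon genes have no interval printed and lay where the arrays give little signal.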
